A study of Mus musculus with 12 samples.

Results

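The fatty acid binding proteins (FABPs) measured here were Fabp1, Fabp2, Fabp3, Fabp4, Fabp5, Fabp6 and Fabp7, taken as every transcript cluster that the array's annotation assigned to 1 of these 7 symbols. A transcript cluster is the set of probes that reads 1 gene. In all, 9 such clusters were found among 35556 on the array, 1 each for Fabp1, Fabp2, Fabp4, Fabp6 and Fabp7 and a pair each for Fabp3 and Fabp5. The family was singled out with its lactating and virgin values already known, so those values are given as a description, without a test.

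Septum tissue came from 6 lactating mice, collected between postpartum days 6 and 8, and from 6 virgin females of matched age, about 70 days old, with 1 array for each mouse. Lactating females had first lived with a breeder male for 2 weeks, virgin females with other females for as long, and all were then housed alone. Every mouse of both groups belonged to 1 line bred selectively from outbred hsd:ICR stock for high maternal aggression, so the values describe that line. The virgin mice were in estrous, diestrous I or diestrous II, and which mouse was in which stage is not given in the sources used here, nor is the postpartum day of each lactating mouse. The labels describe lateral septum taken by hole punch, and the study's methods describe the whole septum. All 9 markers of septal neurons on the list used here and all 15 measured astrocyte markers lay above the range of genes thought silent in brain, described below. Of the striatal markers, 4 of 4 measured lay above that range, as did 5 of 6 cortical or hippocampal ones. Array medians of 320 to 339 also lay above it, its 95th percentile being 181, so most clusters on each array do. These counts therefore do not tell which tissue was in the punch. On the list of cortical and hippocampal excitatory neurons, lactating mouse 4 lay 1.32 log2 units above the average of the 12 arrays.

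FABPs are small cytosolic proteins that hold long-chain fatty acids and related lipids and carry them to membranes, to sites of oxidation and to nuclear receptors. Each is named for a tissue rich in it. Fabp7, the brain type, is made by radial glia, by astrocytes and by oligodendrocyte precursors, prefers docosahexaenoic acid and related polyunsaturated acids, and is known as an early target of Notch signalling. Fabp5, the epidermal type, is found in neurons and glia, and both Fabp5 and Fabp7 bring endocannabinoids to the enzymes that break them down. Fabp3, the heart type, is the main FABP of adult neurons. Fabp1 belongs to liver, Fabp2 to intestine, Fabp4 to adipocytes and Fabp6, which binds bile acids, to ileum.

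Because the transcription factors linked to Fabp7 are among the genes measured, the 250 bases before the RefSeq start site of Fabp7 (GRCm38.p6, chr10:57784673-57784922, plus strand) are shown with those before Fabp3 (chr4:130308488-130308737, plus strand), a member with nearly equal values in the groups. Capitals mark matches, on either strand, to any of 7 short motifs: AGGTCA, the half-site of nuclear receptors; TGGGAA, the core of RBPJ, the DNA-binding partner of Notch; CACNAG, the N-box of HES factors; TTGGC, a half-site of NFI factors; ATTTGCAT, the octamer of POU factors; TGATTGAT, a PBX core; and CCAAT.
Fabp7: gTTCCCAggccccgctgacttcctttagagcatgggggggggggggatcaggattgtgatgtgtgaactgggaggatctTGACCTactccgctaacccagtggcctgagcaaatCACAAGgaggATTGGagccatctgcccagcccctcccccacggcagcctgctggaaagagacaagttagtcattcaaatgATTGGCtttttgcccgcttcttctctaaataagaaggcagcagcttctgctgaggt
Fabp3: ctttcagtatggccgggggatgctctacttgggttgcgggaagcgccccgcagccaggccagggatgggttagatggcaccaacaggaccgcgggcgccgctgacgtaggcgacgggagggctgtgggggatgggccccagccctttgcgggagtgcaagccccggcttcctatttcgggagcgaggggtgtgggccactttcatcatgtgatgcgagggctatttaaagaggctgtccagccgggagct
The Fabp7 window held TGGGAA read on the minus strand from 249 to 244 bases before the start, AGGTCA on the minus strand from 171 to 166 bases before it and CACNAG on the plus strand from 136 to 131 bases before it. It also held CCAAT on the minus strand from 126 to 122 and from 56 to 52 bases before the start, and TTGGC on the plus strand from 55 to 51, which overlaps the nearer CCAAT. The Fabp3 window held none of the 7. Other members had matches too: the Fabp1 window held 2 to AGGTCA and the Fabp6 window 2 to TTGGC. The Fabp2 window held 1 to TTGGC and 1 to CCAAT. Such short words are common: of 32851 RefSeq windows of this length, 41.5% held TTGGC, 36.7% CACNAG, 33.8% CCAAT, 21.6% TGGGAA, 14.0% AGGTCA, 1.60% ATTTGCAT and 0.670% TGATTGAT. A match describes the letters only. The table used held windows for 5 of the 7 members, with none used here for Fabp4 and Fabp5.

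Fabp7 was the member with the largest difference between the groups. Its intensities, in arbitrary units on a linear scale, were 6840, 4921, 4724, 6053, 4587 and 8000 in lactating mice 1 to 6. In virgin mice 1 to 6 they were 9418, 9092, 7981, 8328, 7619 and 8430. Of the 6 lactating mice, 5 lay below every virgin mouse, and lactating mouse 6 lay within the virgin range. The mean was 5854 ± 1369 in lactating mice and 8478 ± 674 in virgin mice (SD, n = 6 each), 30.9% lower in lactating mice. The difference was -0.56 ± 0.127 (SE) on the log2 scale with 16 added to each intensity, and without lactating mouse 6 it was -0.66. In tissue samples such as these, fewer cells that express a gene and less RNA per cell cannot be told apart.

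**Figure D1:**
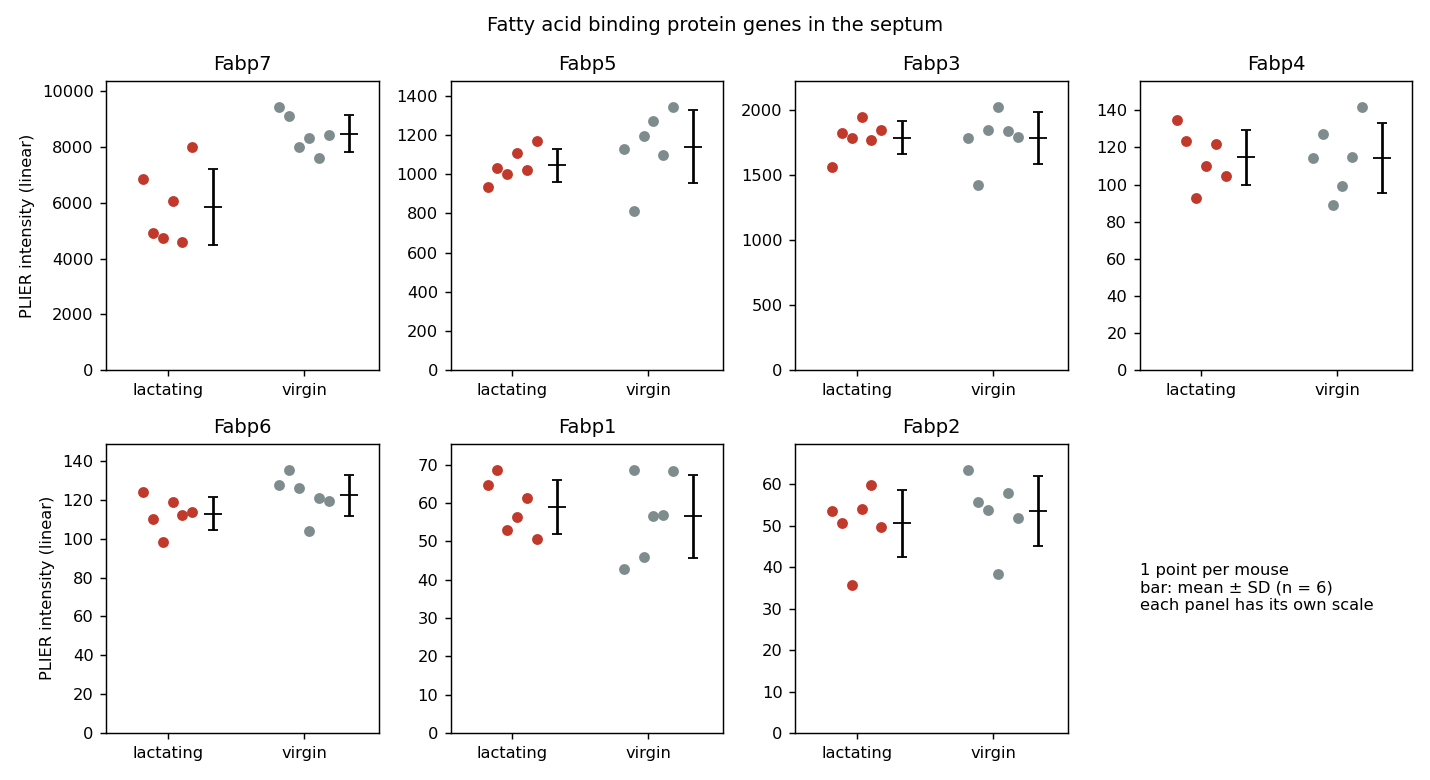
PLIER intensity (linear, each panel on its own scale from 0) of the 7 FABP genes in 6 lactating and 6 virgin mice, 1 point a mouse, with mean and SD beside the points; Fabp3 and Fabp5 are shown by their brighter cluster. For Fabp7, 5 of 6 lactating mice lie below all virgin mice, and in the other panels the groups overlap.

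Lactating mice also differed more from each other in Fabp7 than virgin mice did. The coefficient of variation was 23.4% in lactating mice and 7.95% in virgin mice. On the log2 scale the SD was 0.325 in lactating mice and 0.114 in virgin mice, a ratio of 2.85. Among the 17778 clusters brighter than the array's median, the median of this ratio was 0.915, and 1.45% of them had a larger one. The lactating spread was the less usual side, since 0.669% of those clusters had a larger SD in lactating mice, against 26.6% with a larger SD in virgin mice than that of Fabp7. These are descriptions of the same 12 values and were not tested.

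Fabp5 was slightly dimmer in lactating mice, within the spread of the virgin mice. Its brighter cluster read 933, 1031, 1002, 1109, 1023 and 1172 in lactating mice 1 to 6. In virgin mice 1 to 6 it read 1130, 813, 1195, 1273, 1099 and 1342. Every lactating mouse lay within the virgin range, which was stretched by a low virgin mouse 2. The mean was 1045 ± 84.0 in lactating mice and 1142 ± 185 in virgin mice, a difference of -0.11 ± 0.103 (SE) on the log2 scale. Without virgin mouse 2 the difference was -0.21 and without virgin mouse 6 it was -0.06, so its size rested on single virgin mice.

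Fabp3 showed nearly equal means. Its brighter cluster read 1563, 1826, 1787, 1950, 1769 and 1849 in lactating mice 1 to 6. In virgin mice 1 to 6 it read 1788, 1424, 1851, 2024, 1841 and 1798. Virgin mouse 2, the lowest for Fabp5, was also the lowest for Fabp3. The mean was 1791 ± 128 in lactating mice and 1788 ± 198 in virgin mice, and the log2 difference was 0.007 ± 0.0761 (SE), with a sign that changed in 5 of 22 other settings.

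The second clusters of Fabp3 and Fabp5 carry the same accessions in the annotation as the first, so each pair cannot be told apart by gene. For Fabp3 the ratio of the clusters was 1.05 to 1.14 over the 12 mice, and for Fabp5 it was 1.08 to 1.11. The second Fabp3 cluster averaged 1606 ± 112 in lactating and 1611 ± 142 in virgin mice, and the second Fabp5 cluster averaged 956 ± 79.3 in lactating and 1046 ± 177 in virgin mice. RefSeq lists near copies of both genes, Fabp3-ps1 and Fabp5l2, and probes shared with such copies would make these values uncertain. In RefSeq's order along chromosome 3, Fabp5 is followed by Gm33365, Gm9833, Pmp2, Fabp9, Fabp4 and Fabp12, so 4 further lipid-binding genes of this type neighbour Fabp5.

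The 4 members of peripheral tissues were dim. No detection call came with the values, so the 170 clusters of vomeronasal receptors, genes of a sensory organ outside the brain, served as a working range for silent genes. Their mean intensities had a 5th percentile of 21.9, a median of 68.2 and a 95th percentile of 181. Fabp1, Fabp2, Fabp4 and Fabp6 all averaged below that 95th percentile in both groups, while the clusters of Fabp3, Fabp5 and Fabp7 lay above it. Intensities of different probes cannot be ranked as RNA levels, so the range says only that these 4 could not be separated from background.

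Fabp4, the adipocyte member, read 134.5, 123.5, 92.7, 110.3, 122.0 and 104.8 in lactating mice and 114.2, 127.5, 89.2, 99.3, 114.9 and 141.6 in virgin mice. Fabp6, the ileal member, read 124.2, 110.3, 98.6, 118.9, 112.2 and 113.8 in lactating mice and 127.8, 135.5, 126.3, 103.8, 121.3 and 119.5 in virgin mice. The groups overlapped for both genes, and for Fabp6 lactating mouse 3 alone lay below all virgin mice. Fabp4 averaged 115 ± 15.0 in lactating and 114 ± 18.8 in virgin mice. Fabp6 averaged 113 ± 8.67 in lactating and 122 ± 10.7 in virgin mice, a log2 difference of -0.10 ± 0.0605 (SE). Fabp1, the liver member, ranged over 50.6 to 68.6 in lactating mice and 42.8 to 68.6 in virgin mice, and Fabp2, the intestinal member, over 35.8 to 59.8 in lactating mice and 38.4 to 63.5 in virgin mice. The differences were 0.06 ± 0.0962 for Fabp1, -0.06 ± 0.0986 for Fabp2 and 0.01 ± 0.101 for Fabp4 (log2, SE).

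Of the 9 clusters, 1, that of Fabp7, passed an unadjusted p under 0.05 in the limma fit of lactating against virgin mice, and it was also under the study's threshold of 0.0025. Over all 35556 clusters, 7.95% passed 0.05, 4.69% lower and 3.26% higher in lactating mice, and 0.337% passed 0.0025. The family was chosen on this contrast, so nothing is read from that count. After Benjamini-Hochberg adjustment over all clusters, 0 passed 0.05, against 2828 at an unadjusted p under 0.05. The central 95% of all log2 differences ran from -0.20 to 0.18. The differences of the other 8 clusters fell inside it and that of Fabp7 outside.

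**Figure D2:**
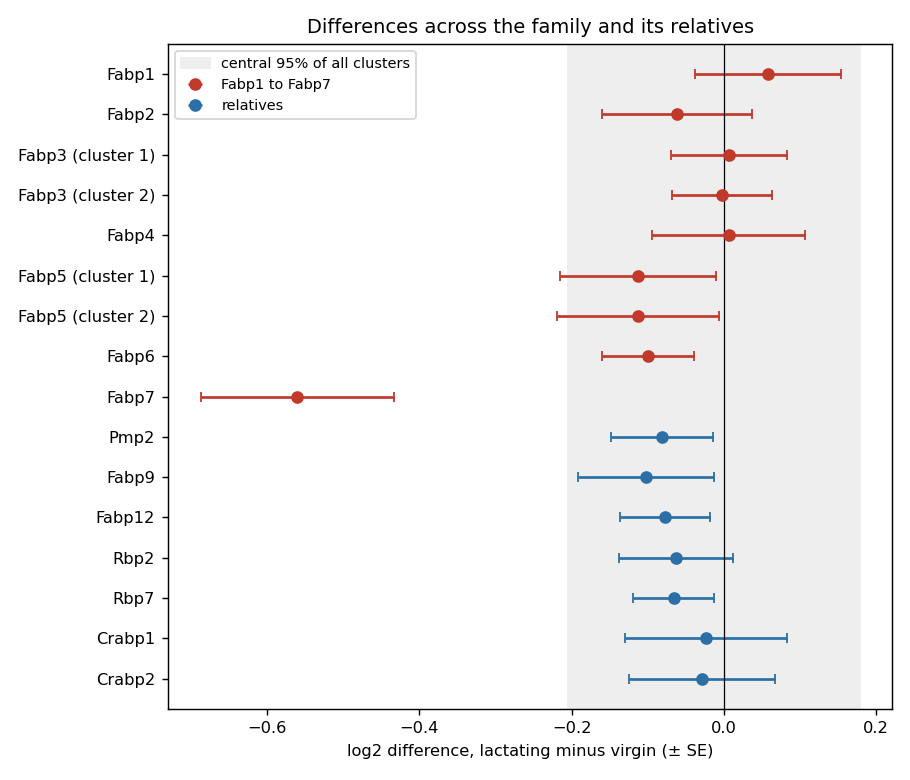
Log2 difference, lactating minus virgin, with its SE for the 9 FABP clusters (red) and 7 relatives (blue); the grey band holds the central 95% of the differences of all 35556 clusters. Fabp7, at -0.56, is the only point outside the band, and the relatives lie between -0.10 and -0.02.

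The closest relatives of the FABPs on the list used here were measured next. They were Pmp2, the FABP of peripheral myelin; Fabp9, the testis type; Fabp12; the cellular retinol binding proteins Rbp2 and Rbp7; and the retinoic acid binding proteins Crabp1 and Crabp2. Of the 7 measured, 0 passed the unadjusted threshold of 0.05 in either direction, and the list had a median log2 difference of -0.07 beside -0.004 over 19938 genes taken at 1 cluster a gene. All 7 differences were negative, and under quantile normalization or cyclic loess 6 of 7 were. Pmp2, Fabp9 and Fabp12 lay in the vomeronasal range, where a sign carries little, and the other 4 above it. Without lactating mouse 3 or virgin mouse 1, 5 of 7 were negative, and without lactating mouse 4 or virgin mouse 6, 6 of 7. Marker lists of peripheral tissues, described below, had medians of -0.07 (adipocytes), -0.07 (striated muscle), -0.06 (enterocytes) and -0.04 (hepatocytes). A median of this size was thus not particular to the relatives, and the -0.004 covers genes of every brightness. Crabp1, which binds retinoic acid in the cytosol, ranged over 697 to 1114 with a median of 817 in lactating mice, and over 785 to 1023 with a median of 834 in virgin mice.

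Genes that handle fatty acids beside the FABPs were then counted on 6 further lists, at 1 cluster a gene. Over the 7 lists, relatives included, 78 distinct genes were measured, with a median log2 difference of 0.01. At the unadjusted threshold of 0.05, 4 of them rose and 2 fell in lactating mice. These shares were near the background, where 3.86% of 19938 genes rose and 4.83% fell. The adjusted p of each of the 6 was 0.619 to 0.623 in limma with Benjamini-Hochberg adjustment over all clusters, so none passed it; the genes named below are those the unadjusted threshold picks. The 6 were Mfsd2a, Abhd6, Lipe, Pnpla2, Nr1d1 and Cpt1a.

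Among genes of fatty acid uptake and activation, 1 of 15 rose and 0 fell. That gene was Mfsd2a, a transporter of brain endothelium that takes in docosahexaenoic acid as a lysophospholipid. Its intensity ranged over 1537 to 2274 with a median of 1747 in lactating mice, and over 1466 to 1606 with a median of 1539 in virgin mice. Of 6 lactating mice, 5 lay above all virgin mice. The mean was 1818 ± 253 in lactating mice and 1533 ± 57.5 in virgin mice (log2 difference 0.23 ± 0.0759, adjusted p = 0.619), and the call held in all 22 alternatives. No marker of the endothelial list passed the threshold (0 of 7, median 0.03). On the uptake and activation list, Dbi, the acyl-CoA binding protein, averaged 4254 ± 296 in lactating and 4510 ± 234 in virgin mice and did not pass (limma, adjusted p = 0.648).

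Among genes of lipolysis and fatty acid oxidation, 2 of 16 rose and 1 fell. Both that rose release fatty acids from stored fat. Lipe, hormone-sensitive lipase, ranged over 435 to 502 with a median of 466 in lactating mice and over 405 to 457 with a median of 436 in virgin mice (log2 difference 0.11 ± 0.0441, limma, adjusted p = 0.619). Pnpla2, adipose triglyceride lipase, averaged 791 ± 28.4 in lactating and 741 ± 41.0 in virgin mice (0.09, limma, adjusted p = 0.623), and it is named as the third of the 3 genes counted. Cpt1a, which admits fatty acids to mitochondria for oxidation, ranged over 825 to 930 with a median of 884 in lactating mice and over 914 to 995 with a median of 924 in virgin mice, with 5 of 6 lactating mice below all virgin mice (log2 difference -0.09 ± 0.0370, limma, adjusted p = 0.623). The 3 calls were close to the threshold. That of Lipe was lost in 6 of 22 alternatives, among them with the replicate number as a block and without lactating mouse 3, 5 or 6 or virgin mouse 3 or 5. That of Pnpla2 was lost in 9, among them without lactating mouse 1, 2, 3 or 4 or virgin mouse 1, 5 or 6. That of Cpt1a was lost in 9, among them with that block and without lactating mouse 1, 2, 3 or 4 or virgin mouse 3, 4 or 5. Over the alternatives on the log2 scale the differences ran from 0.09 to 0.13 for Lipe, from 0.07 to 0.12 for Pnpla2 and from -0.11 to -0.06 for Cpt1a, with no change of sign.

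Of 9 genes of endocannabinoid turnover and receptors, 1 rose and 0 fell. Abhd6, a hydrolase of 2-arachidonoylglycerol, ranged over 1595 to 1838 with a median of 1730 in lactating mice and over 1482 to 1654 with a median of 1594 in virgin mice, with 4 of 6 lactating mice above all virgin mice (log2 difference 0.11 ± 0.0427, limma, adjusted p = 0.619). Its call was lost in 1 of 22 alternatives, quantile normalization. Of 11 genes of fatty acid synthesis, desaturation and elongation and of 10 genes of lipid-activated nuclear receptors, to which FABPs carry ligands, and their coactivator Ppargc1a, counted among the 10, 0 passed in either direction, with median log2 differences of -0.01 and 0.01.

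Among 11 transcription factors and signalling genes linked to Fabp7, 0 rose and 1 fell. Nr1d1 (Rev-erb alpha), a nuclear receptor of the circadian clock that represses transcription and is known to act on Fabp7 in mouse, ranged over 2939 to 3500 with a median of 3406 in lactating mice, and over 3325 to 3976 with a median of 3669 in virgin mice. Its log2 difference was -0.15 ± 0.0575 (adjusted p = 0.619). The groups overlapped, with 2 of 6 lactating mice below all virgin mice, and the call was lost with array medians subtracted and without lactating mouse 1, lactating mouse 5 or virgin mouse 4, with differences from -0.18 to -0.12 over the alternatives on the log2 scale. Rbpj, the factor of the TGGGAA word shown above, averaged 887 ± 11.4 in lactating and 832 ± 56.6 in virgin mice and did not pass (limma, adjusted p = 0.623), nor did Pax6, a regulator of radial glia, at 698 ± 41.0 in lactating mice and 685 ± 47.0 in virgin mice.

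**Figure D3:**
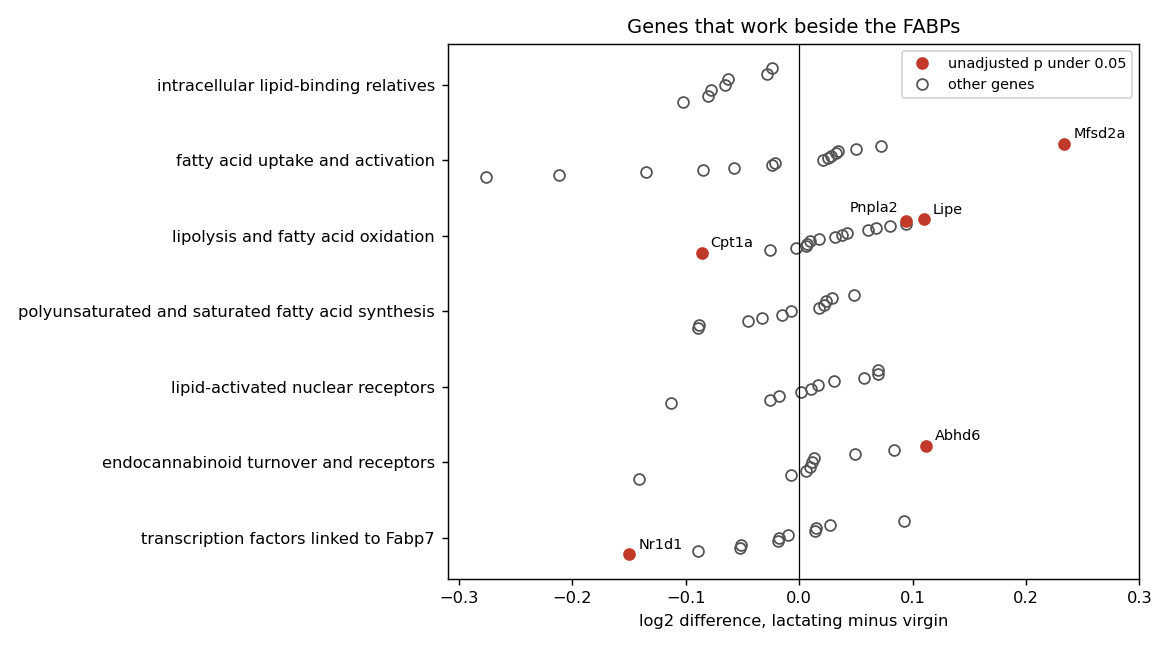
Log2 difference, lactating minus virgin, of the measured genes of each of 7 lists, 1 point a gene; filled points passed an unadjusted limma p under 0.05. Across the lists 4 genes rose and 2 fell, and Mfsd2a, at 0.23, lies farthest to the right.

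Fabp7 marks astrocytes and progenitors, so the markers of these cells were set beside it. Of 15 astrocyte markers, 2 rose and 1 fell, where 3.86% of all genes rose and 4.83% fell, with a median log2 difference of 0.002. Fgfr3, a growth factor receptor of astrocytes, ranged over 1194 to 1324 with a median of 1233 in lactating mice and over 967 to 1167 with a median of 1112 in virgin mice, so all 6 lactating mice lay above all virgin mice (log2 difference 0.20 ± 0.0513, adjusted p = 0.619). Gjb6, the astrocyte gap junction protein connexin 30, averaged 1960 ± 264 in lactating and 1667 ± 135 in virgin mice (0.22, limma, adjusted p = 0.619). The marker that fell was Slc4a4, a bicarbonate cotransporter, at -0.08 (limma, adjusted p = 0.623, the call lost in 12 of 22 alternatives). Aqp4, the water channel of astrocyte endfeet, averaged 1316 ± 187 in lactating and 1312 ± 117 in virgin mice. Of 12 markers of neural progenitors and neuroblasts, 0 passed in either direction, with a median of -0.06, and 0 of 6 passed for oligodendrocyte precursors, with a median of 0.04. The part of cell makeup in the Fabp7 difference was not tested.

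Markers of other cell types were counted at the same threshold, which 3.86% of all genes passed as higher and 4.83% as lower. Of 8 microglial markers, 3 fell and 0 rose, with a median of -0.07. Virgin mouse 6 scored 0.313 on this list and the other virgin mice -0.0896 to 0.0005. Without it 1 marker fell, the median was 0.04 and the mean scores were -0.0309 in lactating mice and -0.0256 in virgin mice. P2ry12, a purinergic receptor of resting microglia, averaged 738 ± 35.3 in lactating and 802 ± 15.0 in virgin mice (-0.12, limma, adjusted p = 0.619), and its call held in all 22 alternatives. Those of Trem2 (-0.18) and Cx3cr1 (-0.11, limma, adjusted p = 0.623 for both) were lost in 8 and 13 of 22. Of 6 choroid plexus markers, Clic6 rose (0.16, limma, adjusted p = 0.623) and Slc4a5, which lay in the vomeronasal range, passed as lower (-0.12), and Ccdc153 fell among 6 ependymal markers (-0.13), calls lost in 10 of 22, 15 of 21 and 8 of 22 alternatives. Calls numbered 0 for myelinating oligodendrocytes, endothelium, neurons, septal neurons, striatal neurons and cortical or hippocampal neurons, with medians of -0.16 for striatal and 0.36 for cortical or hippocampal markers. Without lactating mouse 4, which scored -0.482 and 1.32 on these lists, the medians were -0.08 and 0.07.

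Markers of the tissues that give the dim members their names were partly above background. Of 17 measured, 6 lay above the 95th percentile of the vomeronasal range. Of 5 adipocyte markers, Plin1 and Retn did, of 6 for hepatocytes Apoa1 and Apoa2, and of 6 for enterocytes Apoa4 and Cdx2, each named after its level was seen. Cdx2 averaged 188 in lactating and 200 in virgin mice, close to that percentile of 181. Array medians were 320 to 339, so on each array most clusters lie above it, and 6 of 17 is not an excess. Apoa1, a protein of lipoproteins, averaged 528 ± 44.3 in lactating and 555 ± 62.3 in virgin mice. The adipocyte hormone Adipoq, below that percentile, averaged 101 ± 11.7 in lactating and 118 ± 11.4 in virgin mice and passed as lower (log2 difference -0.20, limma, adjusted p = 0.619), in a range where values carry no firm direction. Tnni3, a troponin of heart muscle, where Fabp3 is best known, fell among the 6 markers of striated muscle (-0.11, limma, adjusted p = 0.623, the call lost in 11 of 22 alternatives).

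Variation among mice of the same group, which the choice of the family did not use, was compared next, as deviations from the group mean over 12 mice. Over 23 lists of pathway and marker genes, 0 correlated with Fabp7 at an unadjusted p under 0.05 (two-sided permutation test within groups, 100000 resamples). For the astrocyte list Pearson's r was 0.26 (permutation p = 0.466) and Spearman's rho 0.02 (permutation p = 0.959). For progenitors and neuroblasts r was 0.01 (permutation p = 0.964) and rho -0.02 (permutation p = 0.955). The lowest p over the 23 lists was 0.142 for r (hepatocytes) and 0.0997 for rho (the FABP relatives), and the lowest adjusted p over them was 0.962 for rho and higher for r. Leaving out the 2 mice farthest from the median of the list gave r = 0.32 for astrocytes and 0.24 for progenitors. By the same measure r was -0.73 for oligodendrocyte precursors and -0.59 for ependyma, against 0.20 and 0.02 over the 12 mice. These values thus hung on a few mice. For some lists the groups differed in sign. In lactating and virgin mice r was 0.32 and -0.93 for ependyma, and 0.36 and -0.82 for oligodendrocyte precursors. It was 0.22 and -0.87 for myelin, 0.49 and -0.43 for astrocytes and 0.41 and -0.63 for progenitors. For the FABP relatives the sign was the same (0.30 and 0.66). Lactating mice, with the wider Fabp7 spread, weigh more in the pooled r. The count of 0 is for pooled mice, and relations within a single group were not tested.

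Lactating mouse 6, the lactating mouse with the brightest Fabp7, weighed on these values. Its list scores, the mean log2 deviation of a list from its average over all arrays, were the highest of the 12 mice for myelin (0.350) and for oligodendrocyte precursors (0.179), and it scored 0.132 for ependyma. Without it, r with the ependymal list was -0.68 (permutation p = 0.00765) and with the lipolysis and oxidation list -0.60 (permutation p = 0.0245), against 0.02 and -0.11 over all 12 mice. The r with the astrocyte list was -0.02 without it.

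Pairs of members were compared in the same way, with the brighter cluster standing for Fabp3 and Fabp5. Of 21 pairs, 3 had an unadjusted p under 0.05 for Pearson's r, and 0 passed after Benjamini-Hochberg adjustment over the 21. Fabp3 and Fabp5 had r = 0.86 (permutation p = 0.0046, adjusted 0.0927) and rho = 0.71 (permutation p = 0.0164, adjusted 0.173). Without the 2 mice farthest from the median Fabp5 deviation r was 0.84, and without virgin mouse 2, low in both genes, it was 0.61 (permutation p = 0.0546).

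The other pairs joined dim members. For Fabp1 and Fabp4, r was 0.74 (permutation p = 0.0132, adjusted 0.0927) and rho 0.83 (permutation p = 0.0038, adjusted 0.0796), and 0.60 for r without the 2 farthest mice. For Fabp2 and Fabp6, r was 0.81 (permutation p = 0.0096, adjusted 0.0927) and rho 0.60 (permutation p = 0.0553, adjusted 0.279), and without the 2 farthest mice r was 0.16, so the relation rested on those mice. All 4 genes lay in the vomeronasal range. No pair with Fabp7 had a Pearson p under 0.05. With Fabp6, rho was 0.62 (permutation p = 0.0384, adjusted 0.269).

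**Figure D4:**
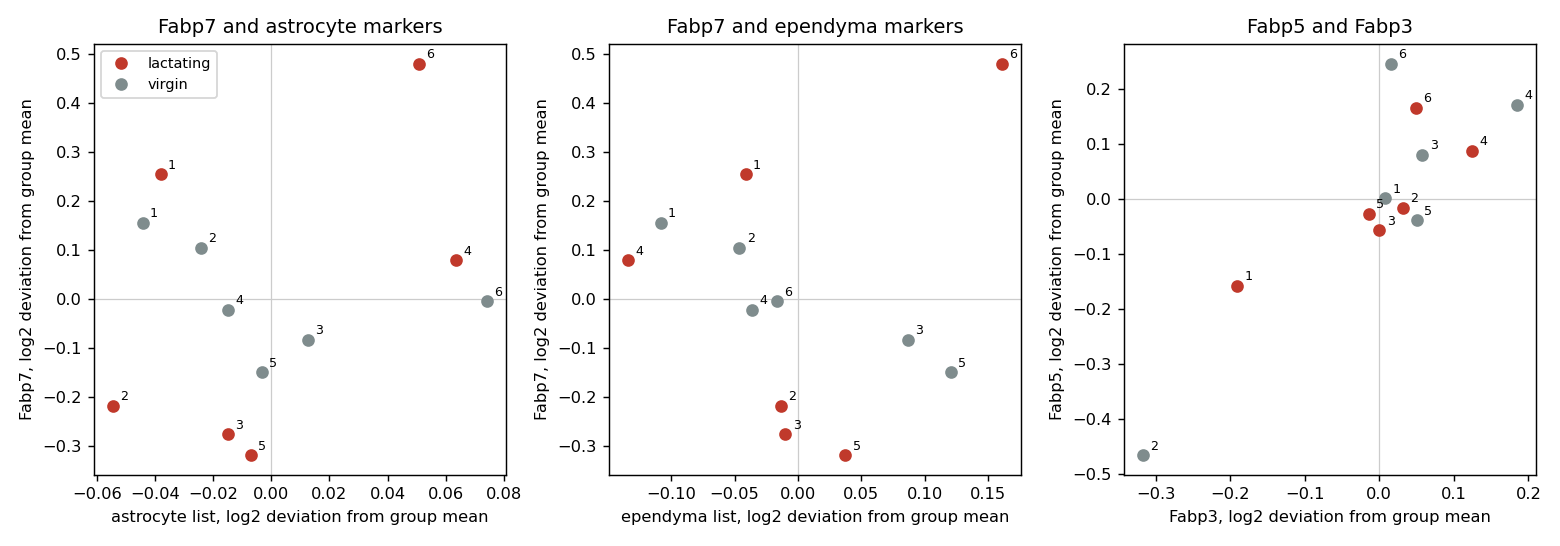
Log2 deviations from the group mean for 12 mice, 6 lactating and 6 virgin, numbered by replicate: Fabp7 against the astrocyte and the ependymal list, and Fabp5 against Fabp3. Fabp7 shows no common slope with either list, lactating mouse 6 stands at the top of both panels, and virgin mouse 2 lies lowest for Fabp3 and Fabp5.

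Genes whose deviations were most like those of Fabp7 were ranked over 12645 brighter clusters with 1 symbol. The highest Pearson's r over the 12 mice belonged to Tomm6 (0.88), a subunit of the mitochondrial import pore, Dok5 (0.86), an adaptor of receptor tyrosine kinases, Mob3a (0.83), Adgrg1 (0.80), an adhesion receptor of neural progenitors and glia, and Dpm3 (0.79), a subunit of a mannose transferase. The lowest belonged to Hbs1l (-0.92), Dnajc13 (-0.90), Ralgapb (-0.89), Strbp (-0.89) and Ppm1b (-0.88). These are the extremes of a long ranking over 12 mice, given as a description. Some were stronger in lactating mice. For Mob3a r was 0.94 in lactating and -0.42 in virgin mice, for Tomm6 0.95 and 0.47, and for Ppm1b -0.97 and -0.41. For Dok5 it was 0.85 in lactating and 0.94 in virgin mice, and for Adgrg1 0.90 and 0.73. Dok5 ranged over 604 to 783 in lactating mice and 690 to 773 in virgin mice, and Adgrg1 over 2666 to 3082 in lactating mice and 2793 to 3204 in virgin mice, so the groups overlapped for both.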

How the data were processed

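Total RNA of 12 septum samples, 6 from lactating and 6 from virgin mice, was hybridized to Affymetrix whole-transcript arrays. The authors summarized and normalized the probes with the PLIER algorithm, with background correction by GC bin, in Affymetrix Power Tools 1.12.0, and the deposited values are linear intensities for 35556 transcript clusters, without detection p-values. Array medians were 320 to 339, and pairs of arrays correlated at r = 0.987 to 0.994. The array's probe annotation gave 1 symbol to 21789 clusters, several to 1621 and none to 12146, and 99.6% of single symbols were in RefSeq. The genome build behind the annotation is not given in the sources used here.

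For this report log2(intensity + 16) was fitted over all clusters with limma 3.58.1 in R 4.3.3 (lmFit and eBayes, two-sided, no block), after a run on simulated data. The number of arrays limits the precision. Where 1 gene had several clusters, lists used the brightest with 1 symbol. Members and lists were chosen with earlier results of these data known, and the motifs after the values were seen. Named from each list were up to 2 genes of lowest p among those with an unadjusted p under 0.05, and the 5 most and 5 least like Fabp7. Some genes were named outside that rule. Crabp1, Dbi, Rbpj, Pax6, Aqp4, Cd36 and the peripheral markers above background did not pass. Pnpla2, Slc4a4 and Cx3cr1 passed but were not among the 2 of lowest p. Alternatives were linear intensities, 1 added in place of 16, filters on brightness and annotation, quantile, median and loess normalization, trended variance, array weights, a replicate block, the mean over clusters and the omission of each mouse. RNA was prepared in matched pairs of a lactating and a virgin mouse, per the study's methods, with the partners not named in the sources used here, so the fit was unpaired. Replicate numbers were shared by the groups, and 2 of 6 numbers had deviations correlated over 0.1 (highest 0.25). Without the same values for unlike numbers beside them, these cannot show whether the numbers mark those pairs. The numbers were used only as a block among the alternatives. Protein sequences were not analysed here.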

Additional observations from a re-analysis of the deposited data

Results flagged for a closer look

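Cd36, a fatty acid translocase and the scavenger receptor CD36 of macrophages and endothelium, read 845 in virgin mouse 6 and 55.1 to 82.7 in the other 5 virgin mice, with a gap of 0.965 of the group's range, and 80.8 to 124 in lactating mice. Of 48 groups tested, 1 passed the cutoff for such a gap, the virgin group for Cd36 with its mouse 6. Chance alone passes that cutoff in about 1 in 20 groups, so a count of 1 is no more than chance gives. How often chance gives a gap as large as 0.965 was not computed. The same mouse had the highest microglial score of the 12 (0.313), on which the lower microglial values of the report largely rested, the highest progenitor score (0.159) and the highest score for fatty acid uptake (0.240), a list that holds Cd36, and its Fabp7 intensity of 8430 lay inside the virgin range.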

How the results depend on the processing

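The Fabp7 difference stayed negative in all 22 alternatives, from -0.57 to -0.53 over other settings and from -0.66 (without lactating mouse 6) to -0.50 (without lactating mouse 5) with 1 mouse left out. Fabp5 and Fabp6 stayed negative, Fabp6 at -0.05 under cyclic loess and -0.07 without lactating mouse 3. Fabp1 was at 0.0001 without virgin mouse 1, against 0.06, and Fabp2, Fabp4 and both Fabp3 clusters changed sign in some alternatives. Over all clusters, 2027 were higher (1160 in the report) and 992 lower (1668) with array medians subtracted, and among clusters above the median intensity alone 1142 were higher and 501 lower, so the balance turned. With 1 mouse left out, higher clusters numbered 782 to 1783 (highest without virgin mouse 4) and lower ones 1054 (without virgin mouse 2) to 2599 (without virgin mouse 3). Without lactating mouse 3 lower clusters numbered 1082. Of the 78 pathway genes, 2 to 7 rose and 0 to 3 fell with 1 mouse left out, and 0 fell with array medians subtracted. With the replicate block, 3 of these genes rose in place of 4, 1 fell in place of 2, and Fabp7 was at -0.56; 2 of 6 replicate numbers had deviations correlated over 0.1. Lists correlated with Fabp7 numbered 1 with quantile normalization and 1 with cyclic loess, in place of 0, and 0 to 2 with 1 mouse left out (2 without lactating mouse 6); correlated member pairs numbered 2 to 5, against 3 (5 without virgin mouse 6). The list under both normalizations was that of the relatives, at r = 0.59 (permutation p = 0.0239) and 0.60 (permutation p = 0.0239). The sign of Fabp7 with the astrocyte list turned to -0.0169 without lactating mouse 6 (up to 0.41 without lactating mouse 1), and with progenitors (up to 0.21 without virgin mouse 1) to -0.0515 on linear intensities, -0.0434 without lactating mouse 2, -0.127 without lactating mouse 3 and -0.287 without lactating mouse 6. Fabp1 with Fabp4 was at r = 0.58 under cyclic loess (permutation p = 0.0875), and Fabp2 with Fabp6 at 0.72 without lactating mouse 3 (permutation p = 0.0653) and 0.67 without virgin mouse 4 (permutation p = 0.0709). For these changes the cause was not tested. The design of 6 mice a group, 1 line and 1 array a mouse sets the precision, and signals in the vomeronasal range carry no firm direction.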
